A study of Mus musculus with 9 samples.

Results

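SSEA-1-stage regions were genomic regions accessible in SSEA-1+ reprogramming cells but called neither in fibroblasts and early reprogramming cells nor in the finished iPSCs. Overlapping accessibility regions of 7 time-course ATAC-Seq libraries were merged on chromosomes 1 to 19 into 204843 union regions. Regions were selected on presence calls in these libraries: a union region was chosen when it held no call in D0, D3, D6T- or iPSCs and a call in D12S+ or D16S+, with D9T- left free. This rule selected 7319 regions (3.57% of the union), of which 4430 were called at D16S+ only, 1629 at D12S+ only and 1260 at both. The same rule with a call required in iPSCs gave 7560 regions, termed retained regions here, and 49441 other regions of D12S+ or D16S+ already carried a call in D0, D3 or D6T-. The 7319 regions were 49.2% of the 14879 late-onset regions, that is, SSEA-1-stage and retained regions together.

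All libraries came from mouse embryonic fibroblasts (MEFs) of E13.5 embryos with GFP inserted behind Oct4, and all reprogramming cells received Sox2, Klf4, Oct4 and c-Myc (OSKM) from pMXs retroviruses in feeder-free medium with LIF. D0 was day 0 fibroblasts and D3 was unsorted day 3 cells. D6T- and D9T- were Thy-1-negative cells sorted at days 6 and 9, D12S+ and D16S+ were SSEA-1-positive cells sorted at days 12 and 16, and the iPSCs were fully reprogrammed. In 2 further day 6 Thy-1-negative libraries, D6 siH3.3 and D6 siNT, cells were transfected with 50 nM siRNA against the histone variant H3.3 or with a non-targeting siRNA, 2 days ahead of day 0. Each condition was 1 library, so the values below have no replicate error, no test between conditions was possible, and a presence or absence is a call in 1 library.

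ATAC-Seq cuts DNA with the Tn5 transposase where nucleosomes leave it exposed, and enhancers and promoters in use give clusters of cuts. During reprogramming, fibroblasts lose the surface protein Thy-1 and a fraction of cells later gains SSEA-1, a carbohydrate of pluripotent cells that appears before the pluripotency network is stable. Sorted SSEA-1+ cells are therefore a mixture of cells on the way to the iPSC state, and a region seen in them alone can belong to few or to many of the cells. Much of the mouse genome consists of copies of transposable elements, and some of these carry sequence bound by transcription factors of early embryonic and pluripotent cells.

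The libraries held 13213117 (D9T-) to 31714845 (D0) tags. D12S+ held 17613087 and D16S+ 21172835, fewer than the 26580724 of iPSCs. The lowest pileup called was 8 tags in D12S+, 9 in D16S+ and 10 in iPSCs, or 0.454, 0.425 and 0.376 tags per 1000000 tags of the library (CPM). Promoters of all 5 pluripotency markers (Nanog, Dppa5a, Esrrb, Zfp42, Pou5f1) and of the epithelial genes Cdh1 and Epcam carried calls in D12S+, D16S+ and iPSCs, against 1 or 2 of the pluripotency promoters in the libraries up to day 9. The Cdh1 promoter was also called at D3. Promoters of all 5 fibroblast markers (Thy1, Col1a1, Col1a2, Twist1, Prrx1) were called in D3, D12S+ and D16S+. D0 and D6T- had 4 of them, and D9T- and iPSCs 3.

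A large fraction of the SSEA-1-stage regions lay in sequence that occurs many times in the genome, and many of the strongest belonged to a few groups of like sequence. The window of 100 bp on either side of the strongest summit of each late-onset region was compared. Windows sharing at least 40 different 24-base words on either strand were linked. This gave 17 sequence families of 25 or more regions, lettered A to Q by size at this step. Any other union region was then added to a family when its window shared at least 40 words with the pooled words of that family. Family counts include these added regions. The windows below are shown because family A supplied the most SSEA-1-stage regions and families C and E many of those with the highest signal, because the region upstream of Meis1 had the highest signal of all, because family D was mostly retained in iPSCs, and because Lifr and Gdf3 are pluripotency-related genes. Each is read from the plus strand of mm9, and capitals mark matches to any of the 20 short motifs searched, which are named in the text that follows.
Family A, most connected window, chr4:53405766-53405966: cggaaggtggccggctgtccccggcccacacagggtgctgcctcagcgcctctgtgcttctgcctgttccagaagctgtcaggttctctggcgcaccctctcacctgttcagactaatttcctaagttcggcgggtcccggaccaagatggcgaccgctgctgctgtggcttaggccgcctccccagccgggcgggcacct
Family C, most connected window, chr12:79507347-79507547: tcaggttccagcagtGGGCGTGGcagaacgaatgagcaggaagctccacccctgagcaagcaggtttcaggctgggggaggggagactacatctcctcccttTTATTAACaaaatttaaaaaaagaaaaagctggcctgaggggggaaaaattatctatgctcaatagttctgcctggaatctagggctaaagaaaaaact
Family E, most connected window, chr12:94343092-94343292: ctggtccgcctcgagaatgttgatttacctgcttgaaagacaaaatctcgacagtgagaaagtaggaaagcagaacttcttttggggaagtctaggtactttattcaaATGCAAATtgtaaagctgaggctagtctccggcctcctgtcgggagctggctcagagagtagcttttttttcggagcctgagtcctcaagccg
Strongest region, upstream of Meis1, family E, chr11:19314493-19314693: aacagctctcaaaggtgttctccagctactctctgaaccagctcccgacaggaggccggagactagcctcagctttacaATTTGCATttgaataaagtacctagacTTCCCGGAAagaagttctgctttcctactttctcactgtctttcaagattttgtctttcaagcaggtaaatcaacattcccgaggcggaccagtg
Strongest region called at D16S+ only, family A, chr14:108156297-108156497: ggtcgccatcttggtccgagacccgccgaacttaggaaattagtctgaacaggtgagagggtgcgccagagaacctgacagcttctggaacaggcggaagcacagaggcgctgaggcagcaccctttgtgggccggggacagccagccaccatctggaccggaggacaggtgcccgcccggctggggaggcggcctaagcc
Family D, most connected window, a retained region, chr3:103644175-103644375: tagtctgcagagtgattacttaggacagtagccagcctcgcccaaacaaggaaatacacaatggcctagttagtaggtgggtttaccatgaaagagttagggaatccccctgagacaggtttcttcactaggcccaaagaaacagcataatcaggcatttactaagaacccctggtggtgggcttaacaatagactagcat
Strongest region in Lifr, chr15:7082828-7083028: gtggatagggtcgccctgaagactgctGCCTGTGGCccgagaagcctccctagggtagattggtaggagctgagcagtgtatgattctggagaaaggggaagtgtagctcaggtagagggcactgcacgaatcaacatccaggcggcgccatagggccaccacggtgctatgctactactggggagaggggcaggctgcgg
Region in Gdf3, chr6:122555555-122555755: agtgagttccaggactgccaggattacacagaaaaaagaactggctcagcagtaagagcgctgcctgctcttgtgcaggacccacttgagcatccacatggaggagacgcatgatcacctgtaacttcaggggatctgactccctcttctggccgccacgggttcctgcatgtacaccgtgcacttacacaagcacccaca
The Meis1 window held the octamer ATGCAAAT, read by Oct4 and its relatives, on the minus strand together with the STAT palindrome TTCCNGGAA. The family E window held the same octamer on the plus strand, and these windows shared 72 of 178 24-base words. The strongest D16S+-only window shared 70 of its 178 words with the family A window, which held none of the motifs. The family C window held a Klf-type GGGNGTGG match and an HNF1-type GTTAATNA match. The Lifr window held a TFAP2-type GCCNNNGGC match, and the Gdf3 and family D windows held none.

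Signal was low in most regions. Values are summit pileups and were part of what selected the regions, so they are a description. D12S+-only regions had a median of 11 tags in D12S+ (0.625 CPM, highest 24 tags) and D16S+-only regions a median of 13 tags in D16S+ (0.614 CPM, highest 47). Regions called at both had medians of 12 tags in D12S+ (0.681 CPM) and 15 tags in D16S+ (0.708 CPM), with the highest at 79 and 133 tags. The retained regions reached medians of 0.738 CPM in D12S+, 0.756 CPM in D16S+ and 0.640 CPM in iPSCs. Of the 7319 regions, 2031 (27.7%) reached at least 2 times 0.376 CPM, the lowest CPM called in iPSCs and the highest such level among D0, D3, D6T- and iPSCs, 312 (4.26%) at least 3 times and 33 (0.451%) at least 5 times, counting the library with the higher CPM. Among the 1260 regions called at both, 779 (61.8%) reached 2 times, against 213 of 1629 (13.1%) called at D12S+ only and 1039 of 4430 (23.5%) called at D16S+ only. At 3 times this level the class called at both held 221 of the 312 regions, and at 5 times 29 of the 33. Of the 7560 retained regions, 4031 (53.3%) reached 2 times this level, 1468 (19.4%) 3 times and 278 (3.68%) 5 times.

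**Figure D1:**
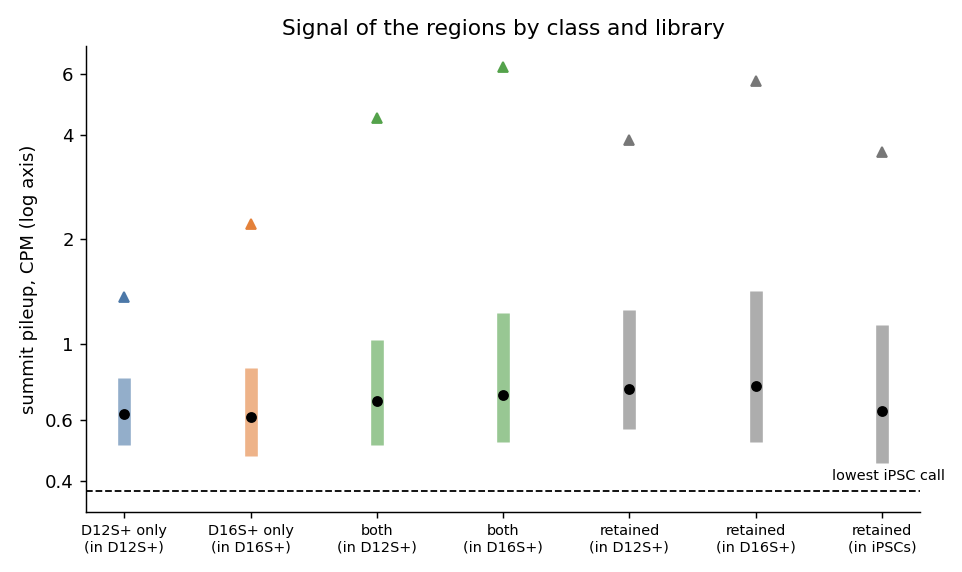
Summit pileup in CPM on a log axis for the SSEA-1-stage classes in D12S+ and D16S+ and the retained regions in D12S+, D16S+ and iPSCs. Bars run from the 10th to the 90th percentile over regions, dots are medians, triangles the highest region, and the dashed line is the lowest CPM called in iPSCs (0.376). The medians of the SSEA-1-stage classes in these libraries lie between 0.614 and 0.708 CPM, and of these classes only the one called at both reaches above 4 CPM.

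Values just inside and just outside the rule were close. A D12S+-only region in Lyg1 (chr1:38013559-38013795) had 8 tags and a -log10 q of 1.78, the lowest value among the SSEA-1-stage regions, which 114 regions shared. Just outside, a retained region in the potassium channel gene Kcnq5 (chr1:21512112-21512458) had 14 tags in D12S+, 13 in D16S+ and 10 in iPSCs, where its -log10 q of 1.72 was the lowest of the retained regions and was shared by 128. Of the SSEA-1-stage regions, 936 (12.8%) had an iPSC region within 1 kb and 2300 (31.4%) within 5 kb.

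The strongest region called at both (chr11:19314342-19314807, intergenic) lay 395.6 kb upstream of Meis1, a homeobox gene of blood and limb development. It had 79 tags in D12S+ (4.49 CPM) and 133 in D16S+ (6.28 CPM), which was 16.7 times the lowest CPM called in iPSCs, and no call in D9T- or in either siRNA library. Another copy of family E (chr14:9577124-9577530, 78.6 kb upstream of 4930452B06Rik) had 64 and 96 tags. A family C region 7.40 kb upstream of the olfactory receptor gene Olfr1387 (chr11:49265528-49266038) had 27 and 67 tags, or 1.53 and 3.16 CPM. A family E region 258.9 kb downstream of the start of Fbxo8 (chr8:59288527-59288964) had 36 and 63 tags. A family C region 95.6 kb upstream of Cenpw (chr10:30015645-30016181) had 9 tags in D9T-, 41 in D12S+ and 61 in D16S+. Outside the families, a region 220.2 kb downstream of the start of Xrcc6bp1 (chr10:126117918-126118496) had 52 and 59 tags. Part of its window was a short sequence repeated in tandem. A region inside the annotated body of Gm13145 (chr4:146739605-146740054) had 37 and 58. All of these but the Xrcc6bp1 region had more CPM in D16S+ than in D12S+.

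Over the 1260 regions called at both, the ratio of D16S+ to D12S+ CPM had a median of 1.05 (10th to 90th percentile 0.707 to 1.59) and was above 1 in 687 (54.5%). At least 2-fold more in D16S+ was seen in 38 regions (3.02%, against 1.98% of the 32569 union regions called in both libraries) and at least 2-fold less in 14 (1.11%, against 3.28%). Both values were part of the selection, and each had to reach the lowest CPM called, 0.454 in D12S+ and 0.425 in D16S+. The medians of 0.681 and 0.708 CPM lay near these levels, which limits how many regions could differ 2-fold. These shares are therefore a description. The retained regions called in both had a median ratio of 1.16, with 259 of 3442 (7.52%) at least 2-fold higher in D16S+.

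**Figure D2:**
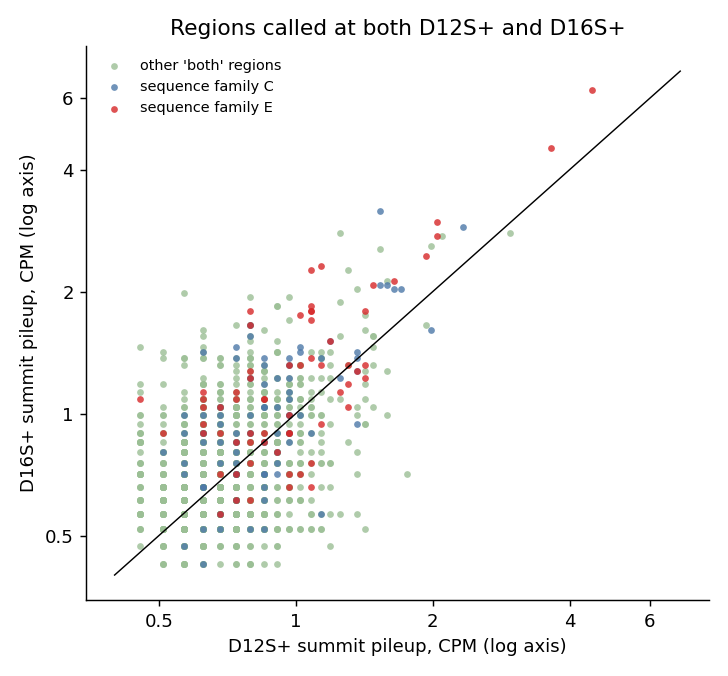
D12S+ against D16S+ summit pileup in CPM, both on log axes, for the 1260 SSEA-1-stage regions called in both libraries. Each point is a region, red points are sequence family E, blue points family C, and the line is equality. The 2 regions above 4 CPM in D16S+ are both family E copies.

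Among regions called in 1 of the SSEA-1+ libraries, the strongest D16S+-only regions were chr14:108156264-108156592 (935.4 kb from Rpl27a-ps2, family A) and chr9:91550234-91550724 (273.2 kb from the start of Zic4, family M), both with 47 tags (2.22 CPM). Regions in Pde1c (chr6:56196449-56196710, 46 tags) and 80.8 kb upstream of the chemokine gene Cxcl12 (chr6:117037692-117037896, 45 tags) were both family B. A region 235.2 kb downstream of the start of Tll1 (chr8:66449318-66449774, 36 tags) was the only one of these 5 in no family. The strongest D12S+-only regions were weaker. They lay in the body of 4930534B04Rik (chr12:92569628-92570287, 24 tags, a run of GGA-rich simple repeat), 151.9 kb upstream of Adamts5 (chr16:86053096-86053425, 24 tags), 237.1 kb upstream of the axon guidance gene Rgma (chr7:80283136-80283482, 22 tags), in Pde4d (chr13:110275024-110275366, 21 tags) and 4.01 kb upstream of Gm3483 (chr14:6354947-6355196, 20 tags).

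D9T- was not used by the rule, and 85 of 7319 regions (1.16%, 95% Wilson interval 0.940 to 1.43, counting error over regions only) were called there, against 16.1% of all union regions. The share was 2.94% of the regions called at both, 1.84% of the D12S+-only regions and 0.406% of the D16S+-only regions. Retained regions stood at 1.96%. Other regions of D12S+ or D16S+ hold calls of D0, D3 or D6T- by definition. They made up 25296 of the 32973 union regions called in D9T-. The rule left these out, so a low D9T- share was set in part by the rule. D9T- had the fewest tags of all libraries (13213117). When every library was limited to an equal number of strongest peaks, the D9T- share was 10.3% of the regions then selected, against 38.6% of all regions then formed. That number was 35811, the peak number of D9T-, so only other libraries lost weak peaks and more regions counted as absent from them. The highest D9T- pileups among the regions were 17 tags 22.1 kb from the start of Olfr664 (chr7:111860269-111861237, then 28 and 44 tags in D12S+ and D16S+), 16 in a region in Ppfibp2 (chr7:114848831-114849831, then 11 and 31), 16 in a D12S+-only region on chromosome 18 that had 16 in D12S+, 15 in a region in Gm13242 (chr4:145170975-145171788, then 8 and 15) and 14 in Cd59b (chr2:103930790-103931215, then 17 and 21).

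The siRNA libraries were likewise not used by the rule, but they were day 6 cells like D6T-. A call in D6T- was excluded, so low shares in them were set in part by the rule. D6 siNT called 58 of the regions (0.792%) against 20.1% of all union regions, and D6 siH3.3 called 61 (0.833%, 95% interval 0.649 to 1.07) against 20.4%. Of these, 44 were in D6 siNT alone, 47 in D6 siH3.3 alone and 14 in both. D12S+-only regions had the most calls, 24 in D6 siNT and 35 in D6 siH3.3 of 1629, against 17 and 11 of 4430 at D16S+ only. Retained regions had similarly low shares, 0.714% in D6 siNT and 1.02% in D6 siH3.3. Both siRNA shares were taken over the same SSEA-1-stage regions, and the interval covers counting error over regions only. With 1 library each, the siRNA effect cannot be told apart from the difference between libraries. With peak numbers made equal, the shares were 6.63% in D6 siNT and 6.35% in D6 siH3.3, against 35.8% and 35.6% of all regions. In that setting D6T- also lost its weaker peaks, so more regions counted as absent from it. Together D9T- and the siRNA libraries called 173 regions (2.36%).

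Windows in multicopy sequence were common among the regions. A window was counted as multicopy when at least 50% of its 24-base words (every 4th tested) occurred 10 or more times in the genome. This held for 1201 of 4430 D16S+-only regions (27.1%, 95% Wilson interval 25.8 to 28.4), 277 of 1260 called at both (22.0%, 19.8 to 24.4) and 102 of 1629 D12S+-only regions (6.26%, 5.18 to 7.54), against 9.47% of the retained regions, 2.51% of the other regions of D12S+ or D16S+ and 3.29% of all union regions. Over all regions called in a library, the share was 7.06% in D16S+, 2.84% in D12S+, 2.93% in iPSCs, 2.86% in D3 and 1.32% in D6T-, and 0.587% to 0.722% in D0, D9T- and the siRNA libraries. D16S+ thus carried the highest share of all libraries, and its part in the D16S+-only count was not tested. Only reads with a single place in the genome had been kept, so copies without a unique base cannot be seen in any library. The multicopy share was larger at higher signal, from 34.6% of the 2031 regions at 2 times the lowest iPSC CPM to 159 of the 312 at 3 times and 66.7% of the 33 at 5 times, where 9 regions were family E and 7 family C.

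**Figure D3:**
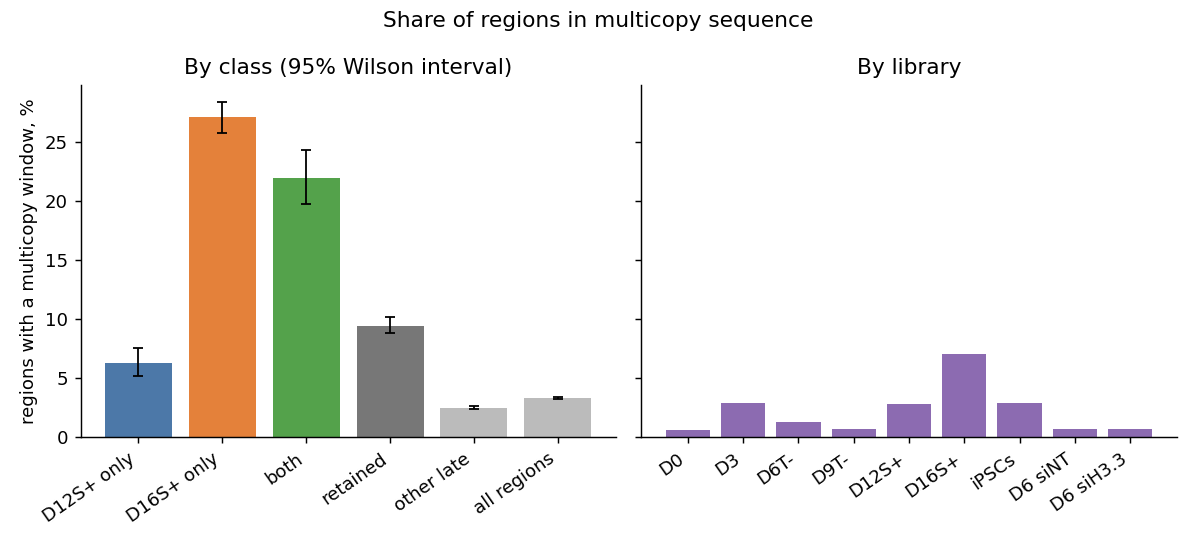
Share of regions whose window is multicopy, in percent, by class (left, error bars are 95% Wilson intervals over regions) and over all regions called in each library (right). D16S+-only regions (27.1%) and regions called at both (22.0%) lie above retained regions (9.47%), and D16S+ is the library with the highest share (7.06%).

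Some families were called in few and others in most of their regions in iPSCs. With the regions added by pooled words, they held 1345 of the SSEA-1-stage regions (18.4%) and 997 of the retained regions (13.2%). Linkage alone placed 2020 late-onset regions in families. Because the families were built from late-onset windows, few calls in D0, D3 and D6T- were set in part by the rule. D9T- and the siRNA libraries were not used by it. The siRNA libraries share day 6 with D6T-, though, and most regions called in D9T- also held a call in D0, D3 or D6T-. Calls of family E numbered 120 in D16S+, 80 in D12S+ and 10 in iPSCs, with none at D0, D3, D6T-, D9T- or in either siRNA library. Of its 125 late-onset regions, 115 (92.0%) were SSEA-1-stage, against 49.2% of all late-onset regions, and these had 8 to 79 tags in D12S+ (median 17, 70 regions called) and 9 to 133 in D16S+ (median 19, 110 called). The octamer ATGCAAAT was present in 86 of the 125 windows (68.8%), and in 79 of the 115 SSEA-1-stage ones. Family E was intergenic in 80.9% of its SSEA-1-stage regions. Its most connected window shared at least 40 words with 270 places of the genome. This count is for that window alone and over all chromosomes, so it does not give the share of copies called.

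Family A was the largest, with 1090 union regions, of which 965 were called at D16S+, 425 in iPSCs, 161 at D3 and 128 at D12S+, and 1 at D6T-, with none at D0, D9T- or in the siRNA libraries. It supplied 572 SSEA-1-stage regions (69.8% of its late-onset regions), with 9 to 47 tags in D16S+ (median 15). The Ets-type letters CCGGAAG lay in 31.6% of its windows and the GRHL-type letters AACNNGTT in 29.8%. Its most connected window matched 1993 places. Family B, with 350 regions, had a like order of 300 calls at D16S+, 161 in iPSCs, 55 at D12S+ and 47 at D3. Family C was called in 268 regions at D16S+, 141 at D12S+ and 72 in iPSCs, with 18 at D9T-, 12 in D6 siNT and 8 in D6 siH3.3, and 83.7% of its late-onset regions were SSEA-1-stage. Klf-type letters lay in 44.9% of its windows and HNF1-type letters in 25.2%. Family N, with 47 regions, had 39 calls at D16S+, 22 at D12S+, 20 at D3 and none in iPSCs, so all 27 of its late-onset regions were SSEA-1-stage.

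Families D, K, L and Q were mostly retained. Family D numbered 207 calls in iPSCs, 191 in D16S+ and 153 in D12S+, and 10.9% of its late-onset regions were SSEA-1-stage. In families K, L and Q the shares were 3.39%, 10.6% and 7.69%. The letters CAGCAGG, which Zic proteins read, lay in 76.7% of family L windows and in 86.1% of family G windows, where 26.6% of late-onset regions were SSEA-1-stage. Octamer letters also lay in 76.0% of family J windows, where 43.4% of late-onset regions were SSEA-1-stage. Family F, with 63.4% of its late-onset regions SSEA-1-stage, was called in 146 regions in iPSCs, 132 at D3 and 107 at D16S+, but in 9 at D12S+. Families A, B and F thus shared calls in D3, D16S+ and iPSCs, the libraries with the highest multicopy shares. The share in D12S+ (2.84%) was close to that in D3 (2.86%), and families A and B also had calls at D12S+. These shares include the calls of the families themselves, and the part of the libraries in this was not tested. No repeat annotation was used, so the families are given by letter.

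**Figure D4:**
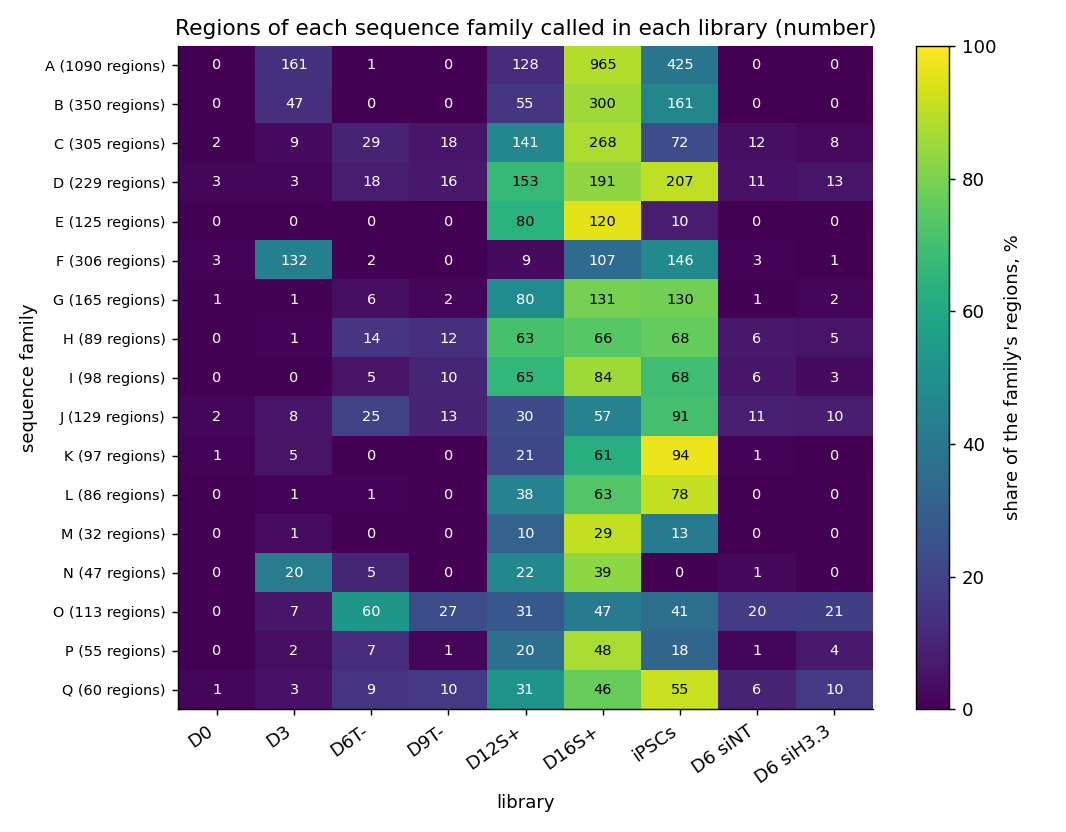
Number of regions of each sequence family (rows) called in each library (columns), coloured by share of the family's union regions in percent. Family E has 80 calls at D12S+ and 120 at D16S+ but 10 in iPSCs, whereas family D keeps 207 in iPSCs.

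Multicopy SSEA-1-stage regions lay farther from genes than the rest. They were intergenic in 72.2% and in promoters in 4.11%, with a median distance of 72.8 kb to the nearest protein-coding transcription start site (TSS), against 46.7%, 11.3% and 24.3 kb of the other 5739. Over all SSEA-1-stage regions, 3819 (52.2%) were intergenic, 2785 (38.1%) in gene bodies and 715 (9.77%, 95% Wilson interval 9.11 to 10.5) in promoters, taken as the 3 kb before a TSS, against 50.3%, 39.0% and 10.7% of the retained regions. Other regions of D12S+ or D16S+ were in promoters in 24.3%. D12S+-only regions lay nearer to a TSS (median 21.3 kb) than those called at both (29.2 kb) or at D16S+ only (36.4 kb). Regions were narrow, with a median width of 224 bp at D12S+ only, 242 bp at D16S+ only and 355 bp at both, against 436 bp for retained regions, and the caller's smallest width limits the lower end. The regions came from every autosome, from 8.26% of the D12S+ and D16S+ regions of chromosome 11 to 13.4% of those of chromosome 14.

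Motif letters were counted in the windows on both strands, and a match is a description of the sequence, not a bound site. AP-1 letters (TGANTCA), read by Fos and Jun, lay in 5.67% of SSEA-1-stage windows and 5.26% of retained windows, against 24.3% of all union windows. Octamer letters lay in 6.83% of the windows called at both (95% Wilson interval 5.56 to 8.35), 3.45% at D16S+ only and 3.31% at D12S+ only, against 3.93% of retained and 1.69% of all windows. Without multicopy windows the share at both was 3.36%, against 3.81% of retained windows. Zic letters (CAGCAGG) lay in 19.9% of windows called at both, 15.0% at D12S+ only and 13.6% at D16S+ only, against 17.9% of retained and 9.91% of all. Without multicopy windows they lay in 23.4% at both, 15.7% at D12S+ only, 17.0% at D16S+ only and 18.8% of retained windows. Esrrb letters (CAAGGTCA) lay in 1.65% of SSEA-1-stage windows against 3.80% of retained and 1.49% of all. Ets letters lay in 6.09% of D16S+-only windows, 2.14% without multicopy ones, and 2.29% of all. Rfx letters (GTTGCCA) lay in 5.59% of D12S+-only windows, 5.16% at both and 3.48% at D16S+ only, against 3.36% of retained and 2.78% of all.
The other motifs searched, with their shares of SSEA-1-stage and of all windows, were SOX (CATTGTT, 2.96% and 4.01%), KLF (GGGNGTGG, 10.8% and 10.1%), E-box (CACGTG, 3.93% and 3.74%), TEAD (CATTCCA, 3.74% and 5.23%), RUNX (TGTGGTT, 3.47% and 5.93%), the letters of Gata factors (AGATAAG, 1.94% and 2.00%), GRHL (AACNNGTT, 4.96% and 2.47%), TFAP2 (GCCNNNGGC, 7.99% and 8.06%), OTX (TAATCCC, 2.51% and 1.75%), FOX (TGTTTAC, 4.93% and 2.48%), STAT (TTCCNGGAA, 0.751% and 0.795%), NFY (ATTGGCT, 3.50% and 3.27%), HNF1 (GTTAATNA, 2.32% and 1.36%) and the core of CTCF (AGGGGGC, 4.96% and 4.75%). Retained windows held GRHL and FOX letters in 4.55% and 4.09%, and KLF and NFY letters in 15.0% and 4.91%. Without multicopy windows, HNF1 letters lay in 1.60% of SSEA-1-stage and 1.34% of all windows.

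Genes were counted when a region overlapped the stretch from 3 kb upstream of a TSS to the transcript end. The TSS nearest to a region can therefore belong to another gene. Of 21418 protein-coding genes, 2494 (11.6%) held an SSEA-1-stage region, 613 of them in the promoter, and 2618 (12.2%) held a retained region. In the naive pluripotency list, 6 of 24 genes held an SSEA-1-stage region (25.0%) and 18 of 24 a retained one. Nanog, the transcription factor of naive pluripotency, held a D16S+-only region over an exon (chr6:122661560-122661767, 14 tags). Gdf3, a TGF-beta family ligand, held a region called at both (chr6:122555531-122555823) with 13 tags in D12S+ and 22 in D16S+. Tet1, which oxidises methylated cytosine, held one called at both with 12 and 11 tags and a D16S+-only one with 10. Tdh, Sall4 and Lin28a each held 1 region, with 16 tags at D16S+ for Tdh and 11 and 15 at D12S+ for the others. None of these 6 genes held one in its promoter.

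The primed epiblast list held SSEA-1-stage regions in 7 of 18 genes (38.9%) and retained regions in 9. Otx2, a homeobox gene of the epiblast and forebrain, had one at its promoter (chr14:49284509-49284846) with 12 tags at D16S+ and 11 in D6 siNT. Lefty1, an inhibitor of Nodal, had a D12S+-only promoter region with 10 tags. The DNA methyltransferase genes Dnmt3a (10 tags in D12S+, 9 in D16S+) and Dnmt3b (11 tags, D12S+ only) and the genes Lef1, Nodal and Etv5 held regions of 10 to 14 tags in their bodies. In the epithelial list, 7 of 31 genes held SSEA-1-stage regions and 12 retained ones. Cdh1, encoding E-cadherin, held D12S+-only regions of 12 and 11 tags, the latter with 10 in D9T-. Ovol1, a repressor of mesenchymal genes, had a promoter region 0.15 kb from its start with 16 tags at D12S+ only, and Esrp1, a splicing factor of epithelia, a D16S+-only promoter region with 12 and a D12S+-only region nearby with 11. Grhl2 held D16S+-only regions of 14 and 16 tags, and Tjp3, Lsr and Cgn, of cell junctions, held regions of 11 to 14 tags. The Lsr region also lay in the promoter of Usf2, and the TSS nearest to the Cgn region was that of Tuft1.

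In the signalling list, 9 of 36 genes held SSEA-1-stage regions (25.0%) and 8 retained ones. Lifr, a receptor subunit for the LIF of the medium, held the strongest of the regions whose nearest gene is on the lists, a region outside exons called at both (chr15:7082748-7083103) with 18 tags in D12S+ and 25 in D16S+ (1.18 CPM). Jag1, a Notch ligand, held a D12S+-only region with 17 tags and, close by, one called at both with 13 tags in D9T-, 10 in D12S+ and 12 in D16S+. D16S+-only regions overlapped the promoters of Wnt7b (9 tags), Dusp4 (13), a phosphatase acting on MAP kinases, and Notch1 (12), where the midpoint lay in the gene body. Fgfr2 counted 10 regions, with up to 29 tags in D16S+, but its gene model in the annotation used runs over 3009 kb and across other genes such as Plekha1, Chst15 and Lhpp, so most of them lie nearer to those genes.

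In the neural list, 2 of 18 genes held an SSEA-1-stage region, at 11.1% near the 11.6% of all protein-coding genes, and 8 held a retained one. Pax6, a regulator of eye and brain, held 3 D16S+-only promoter regions with 15, 21 and 10 tags, the highest at chr2:105517842-105518299, and Zic1 held one with 9. The germline list had 3 of 16 genes, with 14 tags in the promoter of Prdm1, 14 in the body of Sycp3 and 11 in Sycp1, the last a family A copy, all D16S+ only. The mesenchymal list had 3 of 23 genes (Zeb2, Fn1 and Tead1, 10 to 13 tags), the extraembryonic list 4 of 26 (Col4a2, Cdx2 and Ets2, 11 to 16 tags at D16S+ only, and Tfap2c, a trophoblast and germ cell factor, with 10 tags in its promoter at D12S+ only) and the genes of SSEA-1 synthesis 2 of 12 (B4galt1 with 17 tags at D16S+ only and St3gal6 with 12 at D12S+ only). The germline and SSEA-1 synthesis lists stood at 18.8% and 16.7%. The extraembryonic and mesenchymal lists stood at 15.4% and 13.0%, against 11.6% of all protein-coding genes. Only the primed epiblast, naive pluripotency, signalling and epithelial lists had shares above 20%, and each list holds 12 to 36 genes.

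**Figure D5:**
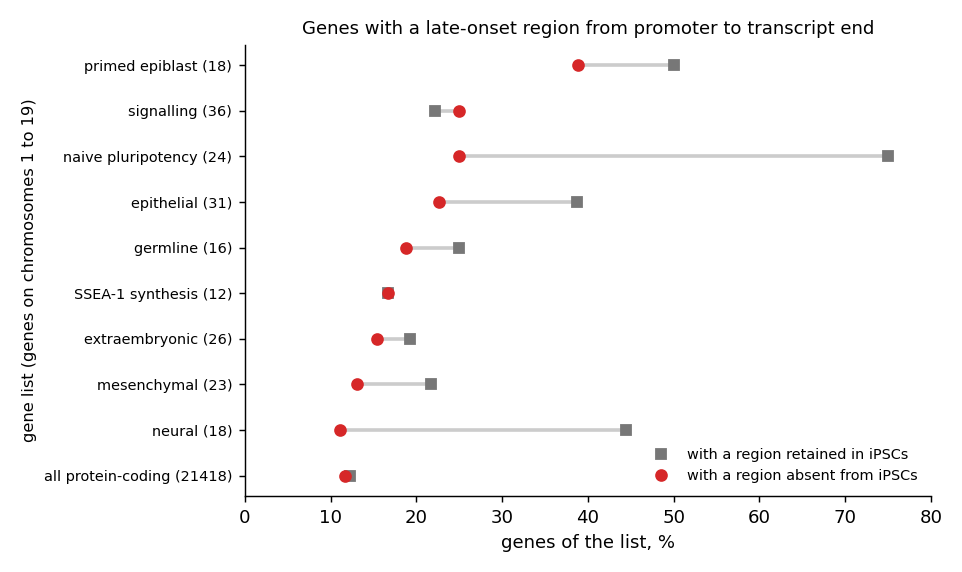
Share of genes in each list, in percent, that hold an SSEA-1-stage region (red dots) or a retained region (grey squares) between the promoter and the transcript end, with the number of genes in parentheses. The naive pluripotency list has 6 of 24 genes with an SSEA-1-stage region against 18 of 24 with a retained one, whereas all protein-coding genes have 11.6% against 12.2%.

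The regions were spread along the genome with some runs. With gaps of at most 25 kb, they formed 888 groups of 2 or more holding 2070 regions (28.3%), and the retained regions, of about the same number, formed 954 groups holding 29.7%. The largest was in Gm13242 on chromosome 4 (chr4:145256776-145289796), with 10 regions in 33.0 kb at 0.454 to 0.681 CPM. Groups of 8 lay in Gng4, a G protein subunit gene (chr13:13887665-13955625), near Aasdhppt (chr9:4082761-4117649) and in A530032D15Rik (chr1:85075091-85120459), and a group of 7 lay in the zinc finger gene Zfp600 (chr4:146119252-146145407, 0.614 to 2.03 CPM). The Gng4 group held 4 regions called at both, with up to 1.48 CPM, and 1 multicopy window. Gm13242, A530032D15Rik and Zfp600 belong to duplicated gene clusters, where uniquely placed reads cover only part of the sequence.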

How the data were processed

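ATAC-Seq reads of 9 libraries were mapped by the authors to mm9 with STAR, keeping reads with at most 2 mismatches and a single locus; duplicates were removed with Picard, and accessibility regions were called with MACS2 2.1.0.20151222 without a control (q of 0.05, 200 bp extension, summits called). The deposited peak lists give, per the file headers, the pileup of tags at each summit (a signal, not scaled), a fold enrichment (ratio) and -log10 p and -log10 q values as the authors' caller wrote them. Fold enrichment and p were not used for results. Pileups were divided here by the header's tag total and multiplied by 1000000 (CPM). The members and gene and motif lists were chosen with earlier results of these data known; sequence families, multicopy windows and the paragraphs on them were added after seeing the data. Named regions were the 5 per class with the highest -log10 q, the 5 called at both with the highest lower CPM, the 5 with the highest D9T- pileup, the 5 largest groups, genes of the lists with a region in their promoter and the strongest region of each list; others were chosen after their values were seen. Genes and positions came from GENCODE vM1, which uses the NCBIM37 build (mm9), and sequence from the same genome; 3 list genes were matched through an older symbol, and 9 had no match on chromosomes 1 to 19 and were left out. Region midpoints set the position, and overlap set which genes held a region. Alternatives covered overlap, distance, peak thresholds, peak number, promoter and window size. Scripts ran on Python with pandas, pysam and networkx, and were tested on simulated data. Intervals and floors cover counting error only. 1 library stood for each condition, so no p-values were computed.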

Additional observations from a re-analysis of the deposited data

How the results depend on the processing

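Of 92 alternative values, 59 stayed within 1.5 times the count or inside the counting interval of the value in the text, and 33 moved. D16S+-only regions stayed the largest class in every setting tried. When each library kept only its stronger 50% of peaks, the regions numbered 3419 (918 at D12S+ only, 1885 at D16S+ only, 616 at both), 12.3% lay in promoters, 4.94% held the octamer and the median CPM was 0.945. With a -log10 q of at least 5 at D12S+ or D16S+, they numbered 3295 (524, 2301 and 470), with 7.89% in promoters, 5.28% with the octamer and a median of 0.795 CPM. When every library was cut to an equal number of its strongest peaks, D12S+-only regions numbered 2643 and those at both 1960. Of the regions then selected, 10.3% were called at D9T-, 6.63% in D6 siNT and 6.35% in D6 siH3.3. Promoters held 13.1% of them, 3.26% held the octamer and the median was 0.795 CPM. This setting drops weak peaks of the libraries with more peaks, so more regions count as absent there. Requiring 50% overlap gave 1.07% in D6 siNT, 1.19% in D6 siH3.3 and 10.8% in promoters, and requiring no early or iPSC peak within 1 kb gave 6.58% in promoters. Promoters drawn from 1 kb before the TSS to 100 bp after it gave 4.71%. Windows of 50 bp and of 200 bp on either side of the summit gave octamer shares of 2.23% and 5.85%. Leaving out multicopy windows, chosen after seeing the data, gave 11.3% in promoters and 3.03% with the octamer, and asking for 25% or 75% of the words gave 30.3% or 14.1% multicopy regions. Causes beyond the settings' own construction were not tested. Shares at D9T- and in the siRNA libraries have no value where absence there was required. No paired analysis was possible because each condition has 1 library. Tag depth limits what absence means, since accessibility below the lowest pileup called in a library goes unseen.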
